A study of Chlamydomonas reinhardtii with 3 samples.

Results

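The heavily methylated nuclear genes of the green alga Chlamydomonas reinhardtii were taken as the gene entries on chromosomes 1 to 14, 16 and 17 whose deposited methylation level was at least 20% in wild type, with a level also given for the cmd1 knockout (cmd1 KO). There were 363 such genes, called members here, among 17326 genes with levels in both genotypes and 16869 genes with levels on the same 16 chromosomes. The samples were 3 whole-genome bisulfite libraries of strain CC125, 1 from wild type and 2 from cmd1 KO, all from cells grown at 25 °C in acetate medium under dim light (20 μmol photons per square metre per second) and then moved to Sueoka's high salt medium under 300 μE. How the cmd1 allele was made, and whether the libraries came from separate cultures, was not stated in the labels. The table has 1 column per genotype, and the labels do not say if that of cmd1 KO comes from 1 library alone, from a mean or from pooled reads, so no value below has an error over replicates and every difference describes these libraries. The files and the reference table give the genes locus identifiers but no names, so members are described by locus and by place in the gene order.

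Cytosine methylation is written by DNA methyltransferases and copied after replication by maintenance enzymes. In land plants, dense methylation is a mark of transposable elements and other repeats. In animals, TET enzymes oxidise methylcytosine. CMD1 is a TET homolog of this alga that, as the title of the series states, makes a DNA modification from vitamin C, and it does so by transferring a glyceryl group to methylcytosine. Bisulfite sequencing reads converted, unmethylated cytosine as thymine and methylcytosine as cytosine. The labels do not state how it reads the CMD1 product. A level is the authors' mean over the sites listed for a gene.

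The members stood far above the other genes of their chromosomes in wild type, as the rule requires, and also in the knockout, whose values the rule did not use. Their wild type level had a median of 34.9% (quartiles 26.2% and 48.4%) and reached 81.0%. In the 16506 other genes of the 16 chromosomes the wild type median was 1.04%. In cmd1 KO the members had a median of 39.3% (quartiles 30.9% and 49.9%), from 13.0% to 80.8%, against 5.84% in the other genes. Of the 363 members, 362 were also at 20% or more in the knockout. A further 201 genes of these chromosomes reached 20% in the knockout alone, from a wild type median of 10.1%, so that members made up 64.3% of the 563 genes at that level in the knockout.

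Very high levels were the minority among the members. In wild type 81 members were at 50% or more and 34 at 60% or more, and in the knockout 90 and 37. Cre14.g628533 had the highest wild type level, 81.0% over 130 sites, and stood at 74.1% over 159 sites in the knockout. Cre05.g235355 had 222 wild type sites with a level of 77.5% and 227 knockout sites with 80.8%, the highest cmd1 KO level of any member. Cre16.g666627 stood at 77.5% and 70.7%, Cre06.g298880 at 75.7% in both genotypes, and Cre06.g278294 at 74.95% and 71.5%. All of these stayed above 70% in the knockout. At the lower edge no gap set the members apart: Cre02.g142707, just inside, stood at 20.03% in wild type and 25.6% in the knockout, and Cre02.g142687, just outside, at 19.99% and 22.6%.

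The order of the members by level was largely shared between the genotypes. Across the 363 members, Pearson's r between the wild type and cmd1 KO levels was 0.87 and Spearman's rho was 0.84. In the 16506 other genes rho was 0.38. These are correlations across genes, which are not independent replicates, and the points share the same libraries. The members span a far wider range of levels than the other genes.

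**Figure D1:**
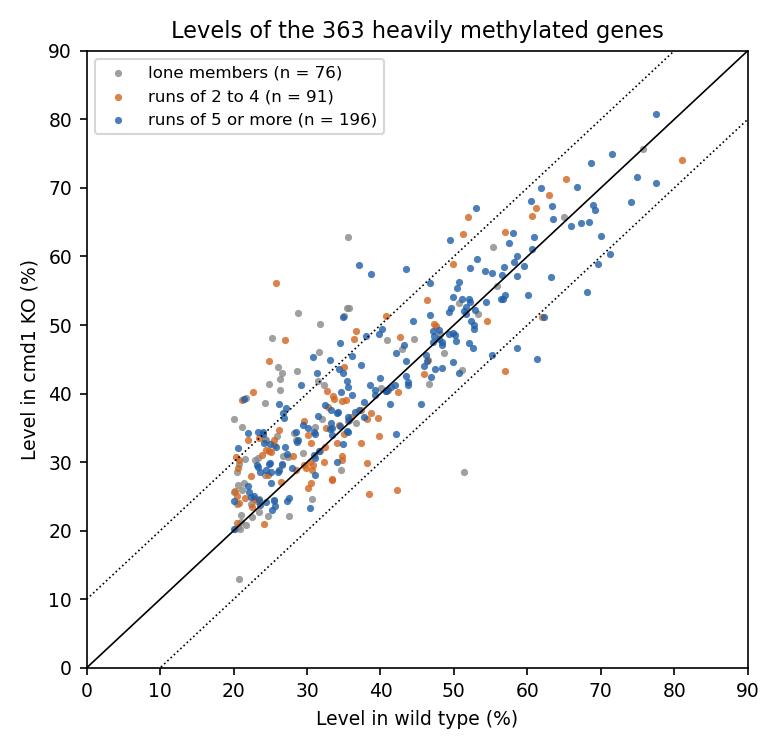
Deposited level of each of the 363 members in wild type (horizontal axis, %) and in the knockout (vertical axis, %), with 1 point per gene, coloured by the length of the run of adjacent members it lies in. The solid line marks equal levels and the dotted lines a difference of 10 points, with 300 members between the dotted lines. Members in runs of 5 or more reach 77.5% in wild type, and the highest member in wild type, at 81.0%, lies in a run of 2.

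Members were found on all 16 chromosomes, in unequal shares. Chromosome 4 had 30 members among 535 genes, a share of 5.61%, and chromosome 5 had 20 among 453, or 4.42%. Chromosome 2 held the largest number, 52 of 1456 genes. The lowest shares were 1.14% on chromosome 7, with 12 members, and 1.32% on chromosome 12, with 23. The median wild type level of the members ranged from 26.1% on chromosome 13 to 47.8% on chromosome 1, and in the knockout from 31.0% on chromosome 7 to 48.7% on chromosome 1.

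The members lay next to each other along the chromosomes. Genes were placed in the order of assembly Chlamydomonas_reinhardtii_v5.5, with genes without levels skipped, and adjacent members were joined into runs. The 363 members formed 135 runs, of which 76 were lone genes and 59 held 2 or more. In all, 287 members, 79.1%, had another member as a direct neighbour, whereas 1.44% of the other genes had a member beside them. The 23 runs of 5 or more held 196 members, 54.0% of all, and 9 runs of 10 or more held 110. Runs of 5 or more were found on 15 of the 16 chromosomes, chromosome 7 being the exception. The labels do not state which region the authors assigned to a gene, and how far neighbouring genes share sites was not tested. The adjacent members Cre06.g278292 and Cre06.g278293 had the same values in every column, 109 and 165 sites with levels of 40.7% and 40.3%. They were the only adjacent members identical in every column, and each was counted.

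The longest run was on chromosome 6, where 18 adjacent members ran from Cre06.g278272 to Cre06.g278289. Their levels were not uniform. Cre06.g278277 stood at 71.5% in wild type and 75.01% in the knockout, and Cre06.g278283, within the same run, at 20.04% and 24.3%. Only Cre06.g278290, at 19.6% in wild type and 27.5% in the knockout, separated this run from the next, of 11 members up to Cre06.g278302. The 2 runs together thus held 29 members among 30 genes, the identical pair included.

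The second longest run held 17 members on chromosome 1, from Cre01.g006250 to Cre01.g006766, and was higher, with medians of 49.8% (wild type) and 48.9% (knockout). The genes directly beside it were low, with 2.78% in wild type before it and 2.61% after it. The gene that followed, Cre01.g006850, stood at 18.8% in wild type and 25.6% in the knockout. The run of 12 on chromosome 10, from Cre10.g445201 to Cre10.g445467, had a median of 55.4% in both genotypes. The gene after it stood at 0.83% in wild type, while the gene before it stood just under 20% in the knockout, at 19.96%. On chromosome 5 a run of 11 from Cre05.g234892 to Cre05.g235400 contained Cre05.g235355 and was bordered by genes at 1.18% and 0.96%. A second run on chromosome 5, of 5 members, began at the first gene of that chromosome's order, Cre05.g233402.

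**Figure D2:**
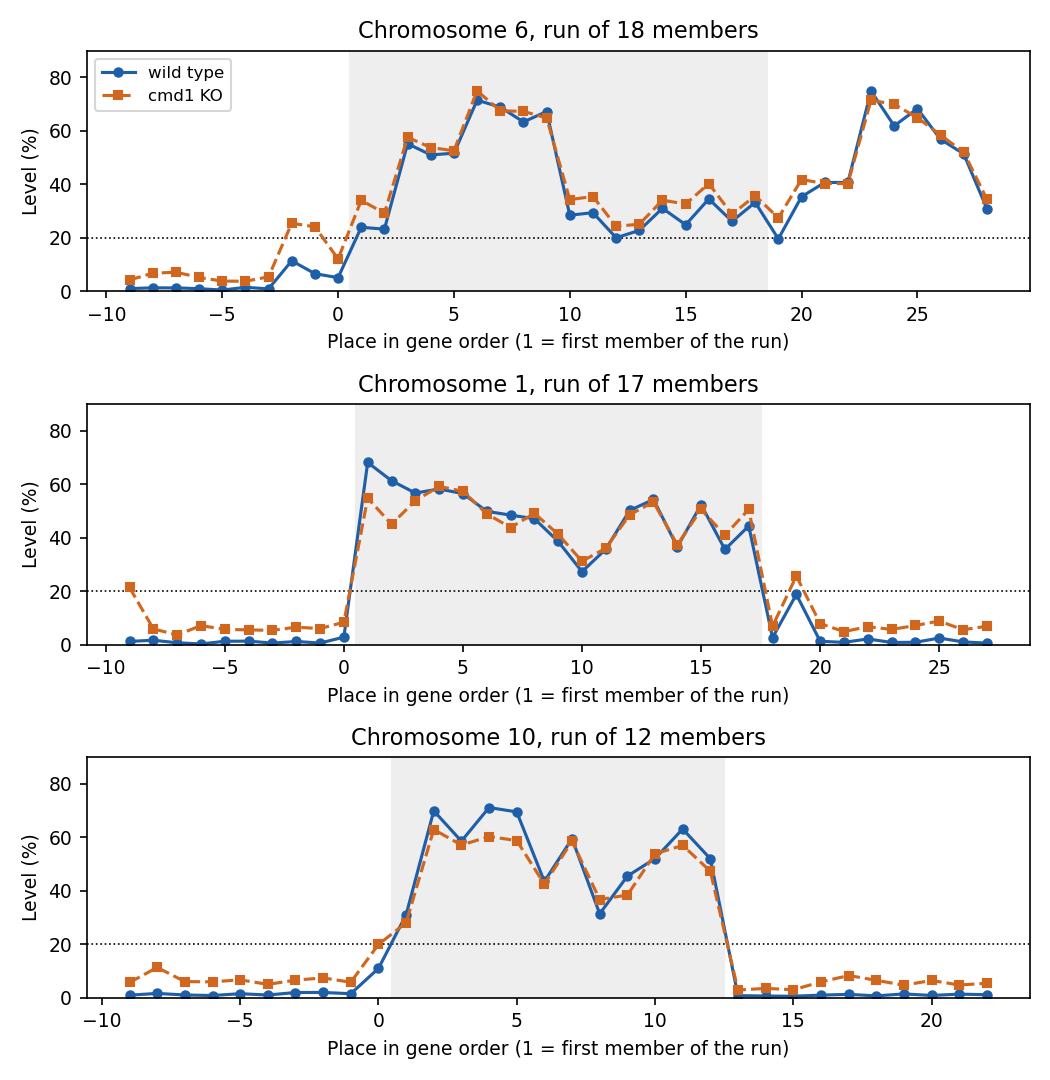
Deposited levels (%) of the members of the 3 longest runs (shaded) and of 10 genes on either side, in gene order, with wild type as circles and cmd1 KO as squares; the dotted line marks 20%. In both genotypes most genes outside the shaded runs lie well under 20%, except for the second run on chromosome 6, and wild type ranges from 20.04% to 71.5% inside the run on chromosome 6.

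Outside the runs the levels were lower within a few genes. The 40 genes that bordered runs of 5 or more were under 20% in wild type by the rule. Of these, 17 were under 2% in wild type and 16 were between 10% and 20%. Their median was 4.21% in wild type and 13.5% in the knockout, where 13 of the 40 were at 20% or more. Seen from all members, 63.1% of direct neighbours were at 20% or more in wild type, against 2.15% of the neighbours of any gene. The share was 46.6% at a distance of 3 genes, 19.9% at 10 genes, 9.54% at 20 genes and 2.01% at 50 genes. In cmd1 KO the share of direct neighbours at 20% or more was 72.2%, and 24.7% at 10 genes. The ends of the gene order held no excess of members: 7.99% lay within 50 genes of an end, compared with 9.49% of all genes.

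**Figure D3:**
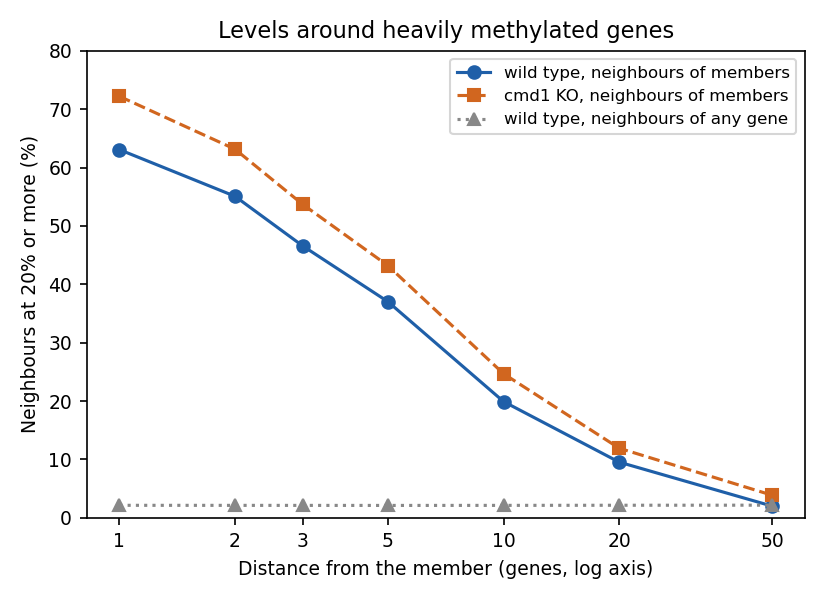
Share of genes at 20% or more (vertical axis, %) at increasing distance from a member in gene order (horizontal axis, log scale), for wild type (circles) and cmd1 KO (squares), and for the neighbours of any gene in wild type (triangles). The wild type share falls from 63.1% of direct neighbours to 2.01% at 50 genes, the level of the triangles.

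Joining runs across up to 3 intervening genes gave 96 blocks, of which 11 held 10 or more members and 169 members in all. The largest was the pair of runs on chromosome 6, followed by 25 members among 28 genes on chromosome 4, from Cre04.g217962 to Cre04.g217990. The 54 genes that lay inside blocks without being members had median levels of 10.1% (wild type) and 17.8% (knockout). Of these, 27 were between 10% and 20% in wild type and 10 were under 2%, and 24 were at 20% or more in the knockout. Some little methylated genes thus lay between heavily methylated ones.

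Adjacent members resembled each other only in part. The median gap between the wild type levels of the 228 adjacent pairs was 10.8 points, where members on different chromosomes differed by a median of 13.0 points. For the cmd1 KO levels the gaps were 8.45 and 12.4 points. The difference between the genotypes was also more alike in adjacent members, with a median gap of 4.28 points against 6.08 points. Pearson's r over the adjacent pairs was 0.36 for the wild type level and 0.40 for the difference, as a description over pairs that share genes and libraries.

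Members in long runs had higher median levels than lone ones. The 196 members in runs of 5 or more had medians of 40.8% for wild type and 43.6% for the knockout, and 62 of them were at 50% or more in wild type. The 91 members in runs of 2 to 4 had medians of 32.9% and 33.9%, and the 76 lone members 26.7% and 34.6%, with 11 and 8 genes at 50% or more. The quartiles overlapped, reaching 35.5% in wild type for lone members and starting at 30.9% for those in runs of 5 or more. Cre06.g298880, at 75.7% in both genotypes, was a lone member.

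Most members differed little between the genotypes. The median difference, cmd1 KO minus wild type, was 2.44 points (quartiles -1.01 and 6.40 points), and the median ratio of the levels was 1.06. In the other genes of the 16 chromosomes these were 4.74 points and 5.60, but the knockout column listed a median of 0.31 sites per wild type site there and 1.43 in the members. With the knockout sum divided by whichever site number was larger, which counts missing knockout sites as 0, there was a median difference of 2.29 points and a ratio of 1.05 in the members and 0.73 points and 1.72 in the other genes. The order of the differences thus turned with the denominator, and the ratio is bounded in the members by the rule itself. The knockout level was the higher in 241 members and lower in 122, where 99.1% of all genes were higher and 0.929% lower. A difference of at least 10 points towards cmd1 KO was found in 52 members, 14.3%, with 3.5% of all genes past this size. A difference of at least 10 points towards wild type was found in 11 members, 3.03%, with 0.0923% of all genes past it. The remaining 300 members differed by less than 10 points and 208 of them by less than 5. The wild type level that chose the members enters each of these differences, and a fall of 10 points is possible only above 10%, so nothing is read from these values against the other genes or the whole genome.

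The difference depended on the wild type level within the members too. In the 126 members between 20% and 30%, the median difference was 5.02 points, with 109 higher and 17 lower in the knockout. In the 99 members between 30% and 40%, it was 2.26 points, with 66 higher and 33 lower. In the 57 members between 40% and 50% it was -0.24 points, and in the 47 between 50% and 60% it was 0.00 points with 23 higher and 24 lower. In the 26 between 60% and 70% it was -0.45 points, with 13 higher and 13 lower. The 8 members at 70% or more had a median difference of -4.85 points. The number of cmd1 KO sites per wild type site also differed between these classes, with medians from 1.31 between 20% and 30% to 1.57 between 60% and 70%, and its part in the differences was not tested.

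The choice of members by the wild type level also bears on this order. Grouped by the cmd1 KO level instead, the 91 genes of the same chromosomes above 50% differed by a median of 2.75 points, and 62 of them were higher in the knockout. Grouped by the mean of both levels, the 81 genes above 50% differed by a median of 0.92 points, with 46 higher and 35 lower. By the wild type level, the class medians above 50% were 0.00 points from 50% to 60%, -0.45 points from 60% to 70% and -4.85 points from 70%. The difference in the most methylated genes thus depended on the column used to choose them. The larger difference in less methylated genes was found under each choice. It was 9.11 points between 20% and 30% in the knockout and 6.78 points between 20% and 30% in the mean.

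**Figure D4:**
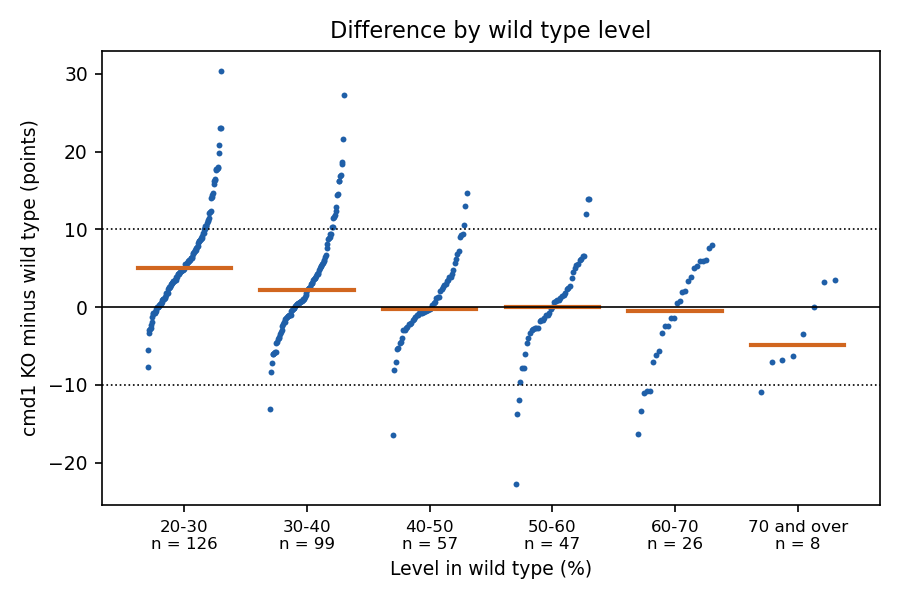
Difference in level between cmd1 KO and wild type (vertical axis, percentage points) for each of the 363 members, sorted within 6 classes of the wild type level (horizontal axis). Bars mark the class medians, from 5.02 points between 20% and 30% to -4.85 points at 70% or more, and dotted lines mark 10 points in each direction.

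The members that differed most towards cmd1 KO stood in the lower part of the wild type range. The wild type level enters the difference, so this order is partly built in and no trait is read from it. The 52 members higher by at least 10 points had medians of 27.9% for wild type and 44.3% for the knockout, where the median of all members was 39.3%. They lay on all 16 chromosomes, and the highest of them in wild type stood at 53.1%. Cre16.g692340 had 40 wild type sites with a level of 25.8% and 37 knockout sites with 56.1%, 30.3 points higher. Its adjusted p was 3.85e-05, from the p in the authors' deposited table adjusted here (Benjamini-Hochberg over all genes). Cre02.g141266 stood at 35.5% over 133 sites and at 62.9% over 207 sites, 27.3 points higher (adjusted p = 1.10e-18, from the authors' deposited table, Benjamini-Hochberg made here). The 5 largest differences in this direction ranged from 21.6 to 30.3 points.

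The members that differed most towards wild type stood high in wild type, which is likewise partly built in. The 11 members lower by at least 10 points had medians of 61.3% for wild type and 46.7% for the knockout and lay on 7 chromosomes. This knockout median was also above the 39.3% of all members. Cre07.g343626 had 107 wild type sites with a level of 51.3% and 100 knockout sites with 28.6%. The difference was -22.8 points (adjusted p = 1.60e-09, from the authors' deposited table, Benjamini-Hochberg made here). Cre12.g559600 stood at 42.3% over only 35 wild type sites and at 25.9% over 63 cmd1 KO sites. Its difference was -16.4 points. The 5 largest differences in this direction ranged from -13.3 to -22.8 points. Of these 5 members, 4 had another member beside them, near the share of 79.1% over all members. Of the 5 with the largest differences towards cmd1 KO, 2 had one.

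Direction was not uniform along the runs. Of the 23 runs of 5 or more, 16 had a median difference above 0 and 7 below, from -3.94 points in a run of 5 on chromosome 8 to 10.3 points in a run of 6 on chromosome 2. In the run of 10 on chromosome 17, from Cre17.g742750 to Cre17.g743269, all 10 members were higher in the knockout, by a median of 7.97 points. In the run of 12 on chromosome 10, 10 of 12 members were lower, by differences down to -10.9 points. In the run of 17 on chromosome 1, 9 were higher and 8 lower, and its first pair of genes, Cre01.g006250 and its neighbour Cre01.g006301, stood at 68.1% and 61.3% in wild type and at 54.8% and 45.01% in the knockout, while the third, Cre01.g006352, stood at 56.7% and 53.8%. Lone members were higher by at least 10 points in 19 of 76 genes (25.0%) and members of runs of 5 or more in 21 of 196 (10.7%). The lone members also had lower wild type levels, as given above, and the difference between these shares was not tested.

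Genes beside the members were compared with other genes of similar wild type level. Among genes between 10% and 20% in wild type, 57 lay next to a member and 104 did not, and their median differences were 7.84 and 7.53 points. Among genes under 2%, 106 lay next to a member, with medians of 1.15% for wild type and 6.04% for the knockout, against 1.01% and 5.74% in the 15289 others. Between 2% and 5% the medians differed more, with 8.20 points in 35 genes next to a member and 5.18 points in 724 others. In that class the wild type medians were 3.60% and 2.46%. Of the 201 genes that reached 20% in the knockout alone, 51, or 25.4%, lay next to a member, against 1.44% of all other genes. Their wild type median was 10.1%, and genes between 10% and 20% in wild type often lay next to a member too, 57 against 104 that did not. No excess over genes of similar wild type level is read from this share.

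The history of the annotation, which does not come from the methylation data, was unlike in members and other genes. In the reference table, 76 of the 363 members, 20.9%, carry an older locus tag from the earlier draft annotation of the genome, compared with 12012 of 16504 other genes of the same chromosomes, 72.8%. The number in the locus identifier was a multiple of 50 in 19.8% of members and in 70.4% of the other genes. The share with an older tag was 73.6% in genes under 2% in wild type, 53.4% between 5% and 10%, 47.8% between 10% and 20%, 19.1% between 20% and 40% and 23.9% at 40% or more. It was lower in genes beside members as well: 51.7% of the 238 other genes next to a member carry an older tag, and 73.1% of those that are not. Within the members it was 39.5% in lone genes, 20.9% in runs of 2 to 4 and 13.8% in runs of 5 or more.

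**Figure D5:**
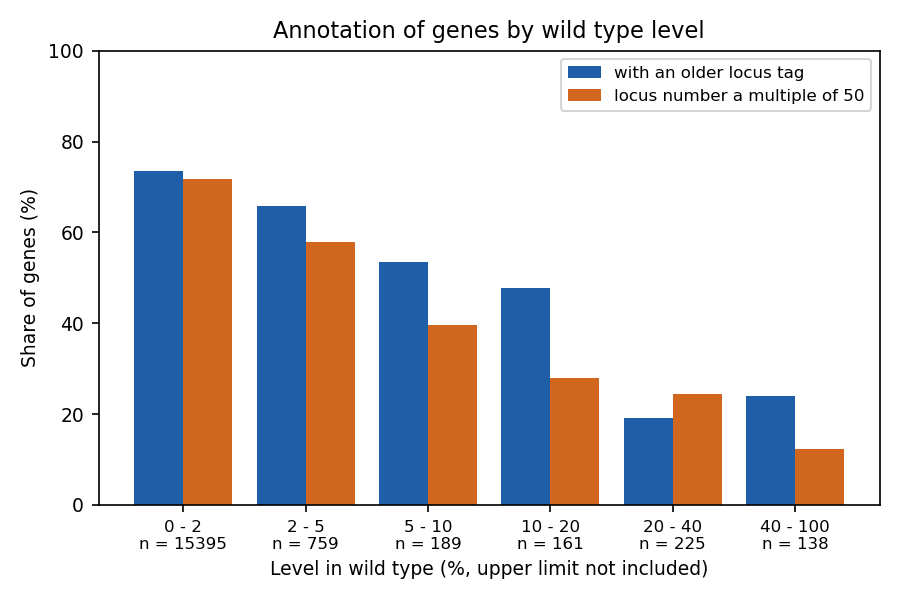
Share of genes (vertical axis, %) with an older locus tag and with a locus number that is a multiple of 50, in classes of the wild type level (horizontal axis, %) on the 16 chromosomes. Bars start at 0; the share with an older tag is 73.6% in genes under 2% and 19.1% between 20% and 40%.

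Within the members, those with an older tag did not stand apart in wild type. Their median was 34.04% in wild type and 43.6% in the knockout, and that of the 287 members without one was 34.9% and 38.4%. Differences of at least 10 points towards cmd1 KO were found in 18 of 76 (23.7%) and 34 of 287 (11.8%). The median number of wild type sites was 104 and 107, and of cmd1 KO sites 129 and 152.

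More sites were listed for the members, above all in the knockout. A member had a median of 107 sites in wild type and 147 in the knockout, whereas the other genes of these chromosomes had 82 and 25. The cmd1 KO number was the larger in 339 of 363 members (93.4%) and in 177 of the 16506 other genes (1.07%). The members held 2.56% of all wild type sites listed and 10.1% of all cmd1 KO sites. Under 20 wild type sites were listed for 5 members (1.38%) and 270 of the other genes (1.64%), and the read depth is unknown. The listed cmd1 KO number may count distinct levels and not sites, in which case cmd1 KO levels would be off where equal levels were dropped. The division by the larger number given above changed only the 23 members with fewer knockout sites. If true site numbers were above those listed, levels would be lower or higher with the levels of the dropped sites. These are not known, and this was not tested.

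The test behind p in the authors' deposited table is not stated, and with 1 column per genotype p describes these libraries. After Benjamini-Hochberg adjustment over all 17326 genes, 112 members had the higher level in the knockout and 31 the lower one, at an adjusted p below 0.05, where 97.6% of all genes were higher and 0.242% lower at that threshold. In the other 220 members, 60.6%, the adjusted p was 0.05 or more. Most members that differed by at least 10 points had an adjusted p below 0.05, and few that differed by under 5 points did. Single genes departed from this. Cre14.g628533 had a difference of -6.99 points, with an adjusted p of 0.339 (authors' deposited table, Benjamini-Hochberg made here). Cre05.g235355 was 3.21 points higher, with an adjusted p of 2.21e-06 (authors' deposited table, adjusted in the same way). In all, 5 members differed by at least 10 points without passing the threshold, and 21 of the 208 with a difference under 5 points passed it. All 11 members lower by at least 10 points passed, as did 47 of the 52 that were higher.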

How the data were processed

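Bisulfite libraries of 1 wild type and 2 cmd1 KO samples were read and processed by the authors. The tools named per the submitters' processing notes were BSMAP, Trimmomatic 0.36 and FastQC 0.11.5. Genome build, coverage minimum, cytosine contexts, the region of a gene and the handling of repeated sequence: not given in the sources used here. Deposited levels are a fraction per gene, printed as percent, with the authors' number of sites and an unadjusted p-value of the authors whose test is not stated. The deposited difference equals cmd1 KO minus wild type.

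The 201 of 17527 entries without levels were left out. Locus identifiers of all 363 members and of 17525 entries were found in the table of assembly Chlamydomonas_reinhardtii_v5.5. It was used only for older tags and for gene order, by start position. Deposited p-values were adjusted by Benjamini-Hochberg over 17326 genes. With 1 column per genotype, of unstated make-up for cmd1 KO, no test over samples was possible; differences were counted at 10 points. Named genes are the highest in wild type, the largest differences, the ends of long runs and the threshold pair; as the tables used here gave no names, 2 loci per direction are printed for the differences, and loci within runs were chosen after their values were seen. Members and lists were chosen with earlier results of these data known. Planned gene length, product name, promoter and protein features were not computed, as no sequence was used here. Run finding and adjustment were tested on simulated data. Python 3.11.15, pandas 2.3.3 and matplotlib 3.10.9 were used.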

Additional observations from a re-analysis of the deposited data

How the results depend on the processing

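Of 39 alternative values, 22 kept their direction and stayed within 1.5 times for a count or the median difference, or within the exact 95% interval for the share next to another member. With a wild type level of at least 30% there were 237 genes, of which 73.4% had another such gene beside them, and with at least 40% there were 138 genes and 65.9%. The median difference was 0.72 points at 30% and reversed to -0.26 points at 40%. It was 3.79 points for genes chosen on the mean of both levels and 6.06 points for genes chosen on the cmd1 KO level. Chosen on the mean of both levels, 95 genes exceeded wild type by 10 points or more, and chosen on the cmd1 KO level, 203 did, since each choice admits other genes. With a size of 5 points, 121 members were higher and 34 lower, and with 20 points 6 and 1. Over all genes the median difference was 4.73 points and the upper quartile 5.72 points. Many genes of any level thus also pass 5 points towards cmd1 KO, and the count of 121 is not read as a trait of the members. The shares of all genes past 5 and 20 points were not counted. The next settings were chosen after seeing the data. With 1 value per run, 26 of 135 runs were higher by at least 10 points and 2 lower. Of these, 19 and 1 were among the 76 lone genes, so few runs of 2 or more passed that size. Without the runs of 10 or more, 7 members were lower by at least 10 points. Counting the identical pair once left 362 members, of which 79.0% were next to another member. No paired analysis was possible because each genotype has 1 column. For the same reason no library could be left out. Read depth is unknown, so levels carry no interval.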

Other observations

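Few genes beside the members lacked a level or an entry, and with counts this small no direction is read from the shares. In the full reference order of the 16 chromosomes, 240 genes that are not members lay next to a member, and 1 of them had an entry without levels (0.42%), compared with 184 of 16639 genes elsewhere (1.11%). Reference genes with no entry in the table were 7 of the 240 (2.92%) and 183 of the 16639 (1.10%).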
